A study of Mus musculus with 8 samples.

Results

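The replication-dependent histone cluster genes of mouse brown adipose tissue (BAT) are described here. Members were the autosomal rows of the deposited table whose symbol starts with Hist1h, Hist2h, Hist3h or Hist4, with pseudogene symbols left out, and the rule used no measured value. It took 67 genes of 49452 in the table: 6 of class H1, 18 of H2A, 18 of H2B, 12 of H3 and 13 of H4. The Hist1 locus on chromosome 13 held 54 of them, Hist2 on chromosome 3 held 10, Hist3 on chromosome 11 held 2 and Hist4 held 1.

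The 8 RNA-Seq libraries were made from BAT of C57BL/6 males, 2 per group. In the first experiment mice aged 10 to 12 weeks were housed at 22 °C (22C, replicates 4 and 7) or exposed to 4 °C for 24 h (4C, replicates 2 and 11), of which the methods give the last 4 h as without food. Whether the 22C mice also went without food is not clear from the methods, and the part of fasting in the 4C values was not tested. In the second, mice 32 weeks old had eaten a high-fat diet (HFD, replicates 2 and 6) or the control food (CD, replicates 6 and 8) for 28 weeks. The study calls the control food a control diet and the labels call it chow, and each group is a whole-tissue sample of 2 libraries. The samples carry brown adipocyte transcripts in every library. Ucp1 was at 699 to 6462 FPKM (fragments per kilobase of transcript, scaled to the mapped fragments of the library). A list of 10 markers read for brown adipocytes summed to 7607 to 17980 FPKM. That list includes Fabp4 (3469 to 7595 FPKM), Adipoq and Pparg, which the study calls common adipose tissue markers. Whole BAT also holds blood, immune, vascular and muscle cells, and in bulk tissue fewer cells of a type and less RNA per cell cannot be told apart.

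Replication-dependent histone genes encode the linker histone H1 and the core histones H2A, H2B, H3 and H4 that package newly copied DNA. Their mRNAs are made mainly in S phase, usually lack introns and end in a conserved stem-loop, bound by the protein Slbp, in place of a poly(A) tail. Some of these genes also give polyadenylated transcripts in cells that no longer divide. Libraries made by ribosomal RNA depletion, as here, keep both forms, and a single FPKM per gene does not separate them.

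The stem-loop that defines this class of mRNA was searched in the annotated transcripts, because it shows what the members share beyond their names. The motif, read on the gene's strand, was GG, any 3 bases, TTT, any 2 bases, A, any 3 bases and CC, with its 6 outer bases on each side fully complementary. It was present in 44 of the 67 members and in 27 other protein-coding genes, together 0.323% of the 21951 protein-coding genes of GENCODE M21, the annotation of GRCm38 used for the search. Among single-transcript, single-exon genes that are not members, 3 of 1216 held it. Of the 23 members with no match, 11 have models that stop at the stop codon, so these letters were not in the window searched. In all, 62 members have 1 exon in every annotated transcript. Each variant of the stem-loop is shown once, 5′ to 3′ as DNA, with the 16 bases of the motif in capitals, lower-case flanks and GRCm38 positions of the whole window.
Hist1h1c (chr13:23739507-23739536, plus strand): caaaaGGCTCTTTTCAGAGCCaccactccc
Hist1h4h (chr13:23531453-23531482, plus strand): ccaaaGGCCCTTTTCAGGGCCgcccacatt
Hist1h3c (chr13:23745038-23745067, minus strand): aaaaaGGCTCTTTTAAGAGCCacctaagat
Hist1h4i (chr13:22040957-22040986, minus strand): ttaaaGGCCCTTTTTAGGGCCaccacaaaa
Hist1h4b (chr13:23757361-23757390, plus strand): caaaaGGTCCTTTTCAGGACCactcactga
Hist2h2ac (chr3:96220409-96220438, minus strand): aaaaaGGCTCTTTTTAGAGCCaccaaatct

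The form in Hist1h1c was the commonest, in 26 members of classes H1, H2A, H2B and H3. The form in Hist1h4h was in 7 members, all H4, and that in Hist1h3c in 6 members, of which Hist1h3c, Hist1h3e and Hist1h3f are the H3 genes with the highest FPKM. The 11 H4 members with a match carried the forms shown for Hist1h4h, Hist1h4i and Hist1h4b, and no member of another class did. In 22 members the longest annotated transcript ran 100 bases or more past the stem-loop. For Hist1h1c the model in the deposited table itself ends 840 bases after it. For Hist2h4 this distance is 1257 bases.

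Promoters of RefSeq (GRCm38.p6, windows of 1 length around each gene's start) were matched to 62 of the 67 members. The octamer ATTTGCAT, searched on both strands, was in 14 of these, which were 7 H2A and 7 H2B genes and none of H1, H3 or H4. It was in 1.74% of all 32851 promoters. CCAAT was in all 50 matched promoters of classes H1, H2A, H2B and H3 but in 3 of 12 of class H4, against 37.4% of all promoters. TATAAA was in 35 of 62, against 13.6%. The H2A and H2B genes are often arranged head to head, and the windows below, with the octamer or its reverse complement in capitals, show a pair that reads the same octamer from opposite strands together with the octamers of the H2B genes Hist2h2bb and Hist1h2bb. A match is a description of the sequence and not a bound site.
Hist1h2bg (chr13:23571335-23571364, plus strand): tcccttATTTGCATagaacctctataaaat
Hist1h2ae (chr13:23571325-23571354, minus strand): ggttctATGCAAATaagggactcaaaagta
Hist2h2bb (chr3:96269646-96269675, plus strand): aacctcATTTGCATacaagctctataagta
Hist1h2bb (chr13:23746638-23746667, plus strand): tctcttATTTGCATaaagcctttgaggcca

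Before the values are read, 2 properties of the libraries matter. The first is that each group holds 1 library with a high value of Gm10800, a gene model made of satellite repeat sequence: 447 to 15726 FPKM in replicate 4 of 22C, replicate 11 of 4C, replicate 8 of CD and replicate 2 of HFD, against 0.0998 to 4.13 FPKM in the other 4. The former are named satellite-high here and the latter satellite-low. No label gives this split, and whether its origin is technical was not tested. The silent olfactory receptor genes, 1099 autosomal genes that also code in 1 exon, averaged 0.0125 to 0.0518 FPKM, with the 4 highest averages in the satellite-high libraries. Between 44 and 60 members per library lay above the 95th percentile of these genes. The second is depth. No library total was used here, but low FPKM values of single-exon genes are whole multiples of the value of 1 fragment, which was 0.0117 to 0.0702 FPKM for 53 members. Of 74 member values from 0.5 to 10 fragments, 68 lay within 0.1 of a whole number, so fragment numbers below are given as about.

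The members differed widely in level. The summed FPKM of all 67 was 195 and 521 in 22C (replicates 4 and 7), 600 and 261 in 4C (replicates 2 and 11), 554 and 316 in CD (replicates 6 and 8) and 457 and 821 in HFD (replicates 2 and 6). In each group the satellite-high library had the lower sum. Over the 8 libraries 6 members had a mean above 10 FPKM, 38 above 1 FPKM and 57 of at least 0.1 FPKM, while 4 were listed at 0 throughout. Of the 57, the highest value lay in HFD replicate 6 for 32 members and in HFD replicate 2 for 15. The lowest lay in 22C replicate 4 for 32 members and in CD replicate 8 for 13.

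**Figure D1:**
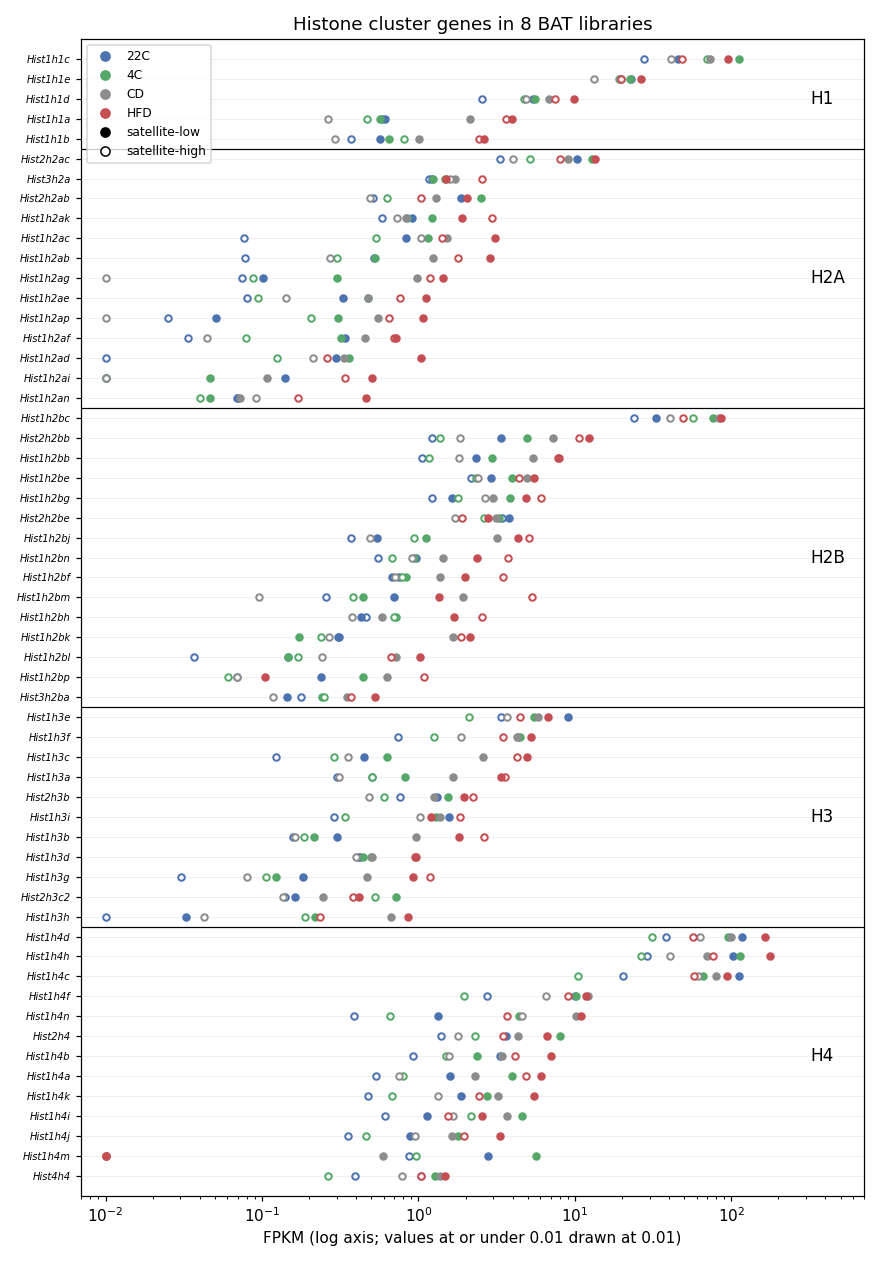
FPKM of the 57 members with a mean of at least 0.1 FPKM (log axis), 1 row per gene and 1 point per library, coloured by group, with open points for satellite-high libraries. A few genes of H1, H2B and H4 lie between 10 and 177 FPKM, and for most genes the HFD libraries sit at the right and the open points of 22C and CD at the left.

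Each class was carried by few genes. The 3 highest members made 97.1% of the summed FPKM of H1, 66.2% of H2A, 78.0% of H2B, 61.9% of H3 and 88.1% of H4. Hist1h4d, an H4 gene on chromosome 13 (GRCm38, plus strand), had 38.2 and 117 FPKM in 22C (replicates 4 and 7), 95.4 and 31.0 in 4C (replicates 2 and 11), 100 and 63.0 in CD (replicates 6 and 8) and 57.2 and 163 in HFD (replicates 2 and 6). Hist1h4h had, in the same order, 28.8, 103, 114, 26.3, 70.3, 40.5, 76.6 and 177 FPKM. Hist1h4c had 20.2, 112, 65.7, 10.5, 79.4, 61.4, 57.8 and 94.2 FPKM. All 3 encode H4, and in each group all 3 were higher in the satellite-low library.

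Among the linker histones, Hist1h1c (H1.2, chr13:23738808-23740367, plus strand) had 27.8 and 45.4 FPKM in 22C, 112 and 69.6 in 4C, 73.6 and 41.4 in CD and 48.3 and 94.7 in HFD, in the replicate order above. Hist1h1e (H1.4) was the most even of the abundant members, at 19.6, 22.9, 22.5, 19.2, 19.3, 13.3, 19.8 and 26.4 FPKM. Hist1h1d (H1.3) lay between 2.57 and 9.89 FPKM. Hist1h1t, the testis linker histone, stayed at or under 0.0885 FPKM, about 6 fragments in CD replicate 6. The testis core histones Hist1h2aa and Hist1h2ba were listed at 0 in all 8 libraries.

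In class H2A, Hist2h2ac led with 3.31 and 10.2 FPKM in 22C, 12.9 and 5.17 in 4C, 9.05 and 4.01 in CD and 8.04 and 13.5 in HFD. Hist3h2a (1.18 to 2.55 FPKM) overlaps Trim17 on the same strand, and Hist2h2ab lay between 0.487 and 2.50 FPKM. On the opposite strand Hist2h2ac overlaps Gm44492, Hist3h2a overlaps Gm44313 and Hist2h2ab overlaps Gm15444. In class H2B, Hist1h2bc led with 23.9 and 33.2 FPKM in 22C, 76.2 and 56.6 in 4C, 83.9 and 40.5 in CD and 49.5 and 85.4 in HFD. Its model spans 8290 bases with an intron, unlike that of most members. Hist2h2bb (1.21 to 12.3 FPKM) and Hist1h2bb (1.05 to 7.92 FPKM) followed, and Hist2h2bb overlaps Gm42743 and, on the opposite strand, Gm20628. Whether strand was used for these FPKM values is not stated, so overlapping genes cannot be told apart.

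In class H3, Hist1h3e had 3.39 and 9.02 FPKM in 22C, 5.51 and 2.09 in 4C, 5.80 and 3.67 in CD and 4.43 and 6.78 in HFD. Hist1h3f lay between 0.737 and 5.25 FPKM and Hist1h3c between 0.123 and 4.97 FPKM. Of the smaller loci, Hist2h2be (1.70 to 3.79 FPKM), Hist2h4 (1.40 to 8.05 FPKM) and Hist2h3b (0.486 to 2.23 FPKM) also passed a mean of 1 FPKM, whereas Hist4h4 lay between 0.264 and 1.48 FPKM.

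Near-identical copies limit what can be said of single members. Of the 67 members, 25 shared more than 50% of their 100-base stretches with a transcript of another gene, and 7 shared none. Hist1h4m and Hist1h4n, which shared 88.1% and 80.7%, were chosen as an example after their values were seen: Hist1h4m was listed at 0 in CD replicate 8 and both HFD libraries while Hist1h4n had 3.69 to 10.9 FPKM there. Their sum was 1.26 and 4.10 FPKM in 22C, 10.1 and 1.63 in 4C, 10.7 and 4.57 in CD and 3.70 and 10.9 in HFD.

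**Figure D2:**
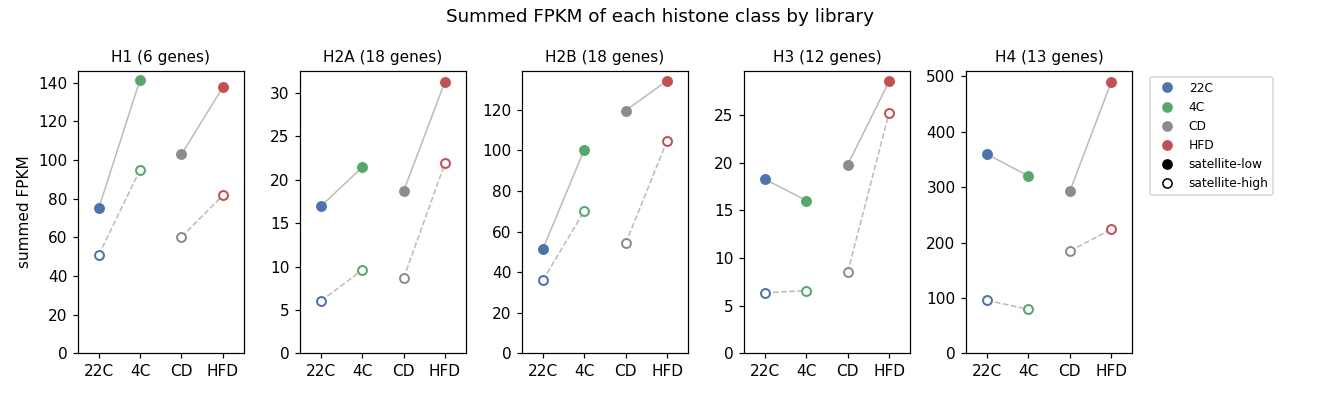
Summed FPKM of the members of each class (linear axis from 0), 1 point per library, open for satellite-high, with lines joining libraries of the same type within an experiment. Every open point lies below the filled point of its group, and the sums of H2A and H3 in HFD lie above both CD libraries.

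After cold exposure, most histone cluster genes did not separate from 22C. On the log2(FPKM + 1) scale, by which members are ranked here, 3 genes had the largest log2 fold changes. They were the linker histone gene Hist1h1c, the H2B gene Hist1h2bc and the H4 gene Hist1h4i. With a pseudocount of 0.1 their values were 1.31, 1.22 and 1.80, so the order depends on this scale. The question was whether 24 h at 4 °C altered histone mRNA in BAT. Of 67 members, 55 reached 0.1 FPKM in 2 of the 4 libraries and were tested, and limma on log2(FPKM + 1) with Benjamini-Hochberg adjustment put 0 past threshold (adjusted p under 0.05 and a log2 fold change of at least 1). Of all 17470 genes tested, 1.22% were past threshold as higher and 0.223% as lower. At an unadjusted p under 0.05, 8 members were higher (14.5%, against 17.2% of all tested genes) and 0 were lower (against 7.26%). Of the 8, Hist1h2ap and Hist1h3h passed the filter on low values through the 4C libraries alone, so they had to be higher there, and they are also among the members without overlap counted below. With library type as a covariate 3 members were past threshold, as described below.

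Hist1h1c was at 36.6 ± 12.5 FPKM in 22C and 91.0 ± 30.2 FPKM in 4C (SD, n = 2), and the 2 groups did not overlap. Its log2 fold change was 1.29 ± 0.36 (SE, limma, adjusted p = 0.115). Hist1h2bc went from 28.6 ± 6.59 to 66.4 ± 13.9 FPKM (SD, n = 2), again with no overlap, a log2 fold change of 1.19 ± 0.28 (SE, limma, adjusted p = 0.0842). Hist1h4i, at 0.611 and 1.13 FPKM in 22C and 4.57 and 2.15 FPKM in 4C, went from about 43 and 78 to about 236 and 130 fragments. Its log2 fold change was 1.18 ± 0.32 (SE, limma, adjusted p = 0.107). That value was 1.80 with a pseudocount of 0.1 and 0.77 without 4C replicate 2. With library type as a covariate, which leaves 1 residual degree of freedom, these 3 passed the threshold with limma's adjusted p of 0.0288, 0.0322 and 0.0363. In that fit 4.32% of all tested genes were past threshold as higher, so 3 of 55 (5.45%) was near the background, and 0 members were past it as lower (against 0.601%). Without a test, the same 3 genes had a 2-fold rise, against 5.44% of all tested genes, and 0 had a 2-fold fall (against 0.836%).

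The next largest values were those of Hist1h4n (log2 fold change 0.74 ± 0.58 SE) and Hist2h4 (0.72 ± 0.56 SE), both with overlapping groups. The most negative values were those of Hist1h4c (-0.82 ± 1.09 SE), Hist1h3e (-0.56 ± 0.52), Hist1h4d (-0.29 ± 0.72), Hist2h2be (-0.23 ± 0.19) and Hist1h4f (-0.16 ± 0.78), with limma's adjusted p from 0.50 to 0.92. Of these, the libraries of Hist2h2be alone did not overlap. The median log2 fold change of the 55 was 0.14, beside 0.07 over all tested genes, and turned negative (-0.12, beside -0.19) when each library was centred on its median. It was also negative without replicate 4 of 22C (-0.06, beside 0.08) or replicate 2 of 4C (-0.07, beside 0.02). The same median was 0.39 (beside 0.09) without replicate 7 of 22C and 0.38 (beside 0.14) with a pseudocount of 0.1. The groups were separated with 4C higher for 15 members (27.3%, against 37.9% of all tested genes) and with 4C lower for 3 (5.45%, against 20.6%). Values above 0 were found for 43 members (78.2%, against 61% of all tested genes), and for 35 the value was above 0 within both library types (63.6%, against 44.6%). After median centring 17 members had values above 0 (30.9%, against 31.8%), 6 had 4C higher with no overlap (10.9%, against 19.8%) and 10 had it lower (18.2%, against 47.7%). By class the medians were 0.24 for 5 H1 genes, 0.14 for 11 H2A, 0.10 for 15 H2B, 0.05 for 11 H3 and 0.28 for 13 H4.

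Other gene groups were read beside the members in the same fit. Of 13 tested genes for histone mRNA processing, 0 passed the threshold, and Slbp, the stem-loop binding protein, had 7.98 and 8.57 FPKM in 22C and 17.1 and 11.3 FPKM in 4C (log2 fold change 0.69 ± 0.25 SE, adjusted p = 0.177). Of 19 tested genes of S phase and mitosis, 0 passed, 5 had values above 0 (against 61% of all tested genes) and the median was -0.05. Both 4C libraries lay below both 22C libraries for 8 of the 19 (against 20.6%) and above them for 3 (against 37.9%). In the fit with library type Tyms, which makes thymidylate, passed as higher in 4C (log2 fold change 1.01, limma's adjusted p = 0.0474), against 4.32% of all tested genes. Of 11 tested genes of replication-independent histone variants 0 passed. With the covariate H2afy2 passed as higher (1.28, limma's adjusted p = 0.031), against 4.32% of all tested genes. Of 11 skeletal muscle markers all 11 were higher in both 4C libraries, against 37.9% of all tested genes. Without a covariate 0 passed (against 1.22% as higher), and 6 passed as higher with it (against 4.32%). Their sums were 492 and 103 FPKM in 22C (replicates 4 and 7) and 3908 and 1693 FPKM in 4C (replicates 2 and 11). No macrophage marker of 8 was higher (against 37.9%) or lower (against 20.6%) in both 4C libraries. The part of the muscle signal in the histone values was not tested.

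Between HFD and CD, 32 of 56 tested histone cluster genes had both HFD libraries above both CD libraries and 24 had groups that overlapped (32 of 56 is 57.1%, against 39.9% of all tested genes), while the summed FPKM of all members overlapped between the diets. The largest log2 fold changes were in H1, H2B, H3 and H4 genes of moderate or low level: Hist1h4a, Hist2h2bb, Hist1h3c, Hist1h1a and Hist1h3a. The question was whether long-term HFD feeding altered histone mRNA in BAT. No single gene of 56 tested members passed the threshold with limma and Benjamini-Hochberg adjustment (lowest adjusted p = 0.151), where 0.0513% of 17535 tested genes were past it as higher and 0.0171% as lower. At an unadjusted p under 0.05, 26 members were higher (46.4%, against 12.1% of all tested genes) and 0 were lower (against 2.34%). Hist1h2an is among the 26 and the 32, and it passed the filter on low values through the HFD libraries alone. With library type as a covariate 10 members were past threshold, named below.

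Hist1h4a, an H4 gene (chr13:23760692-23761230, minus strand), had 2.30 and 0.757 FPKM in CD (replicates 6 and 8) and 4.85 and 6.04 FPKM in HFD (replicates 2 and 6). Its log2 fold change was 1.41 ± 0.37 (SE, limma, adjusted p = 0.175). Hist2h2bb had 7.27 and 1.85 FPKM in CD and 10.7 and 12.3 FPKM in HFD, 1.36 ± 0.51 (SE, limma, adjusted p = 0.293). In both genes the HFD libraries lay above the CD libraries, and CD replicate 8 was lowest.

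Hist1h3c had 2.58 and 0.355 FPKM in CD and 4.29 and 4.97 FPKM in HFD, about 102 and 11 against 145 and 152 fragments, a log2 fold change of 1.35 ± 0.45 (SE, limma, adjusted p = 0.245). Hist1h1a, the gene of H1.1, had 2.13 and 0.264 FPKM in CD and 3.63 and 3.95 FPKM in HFD (log2 fold change 1.27 ± 0.42 SE, adjusted p = 0.245). Hist1h3a had 1.66 and 0.312 FPKM in CD and 3.57 and 3.39 FPKM in HFD (log2 fold change 1.26 ± 0.36 SE, adjusted p = 0.197). All 5 values were lower without CD replicate 8, where the log2 fold change was 0.96 for Hist1h4a, 0.59 for Hist2h2bb, 0.65 for Hist1h3c, 0.61 for Hist1h1a and 0.75 for Hist1h3a, with limma's adjusted p from 0.29 to 0.67. Hist1h3c, Hist1h1a and Hist1h3a were also low in 22C and 4C, where Hist1h1a lay between 0.471 and 0.614 FPKM, Hist1h3c between 0.123 and 0.632 FPKM and Hist1h3a between 0.302 and 0.822 FPKM.

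**Figure D3:**
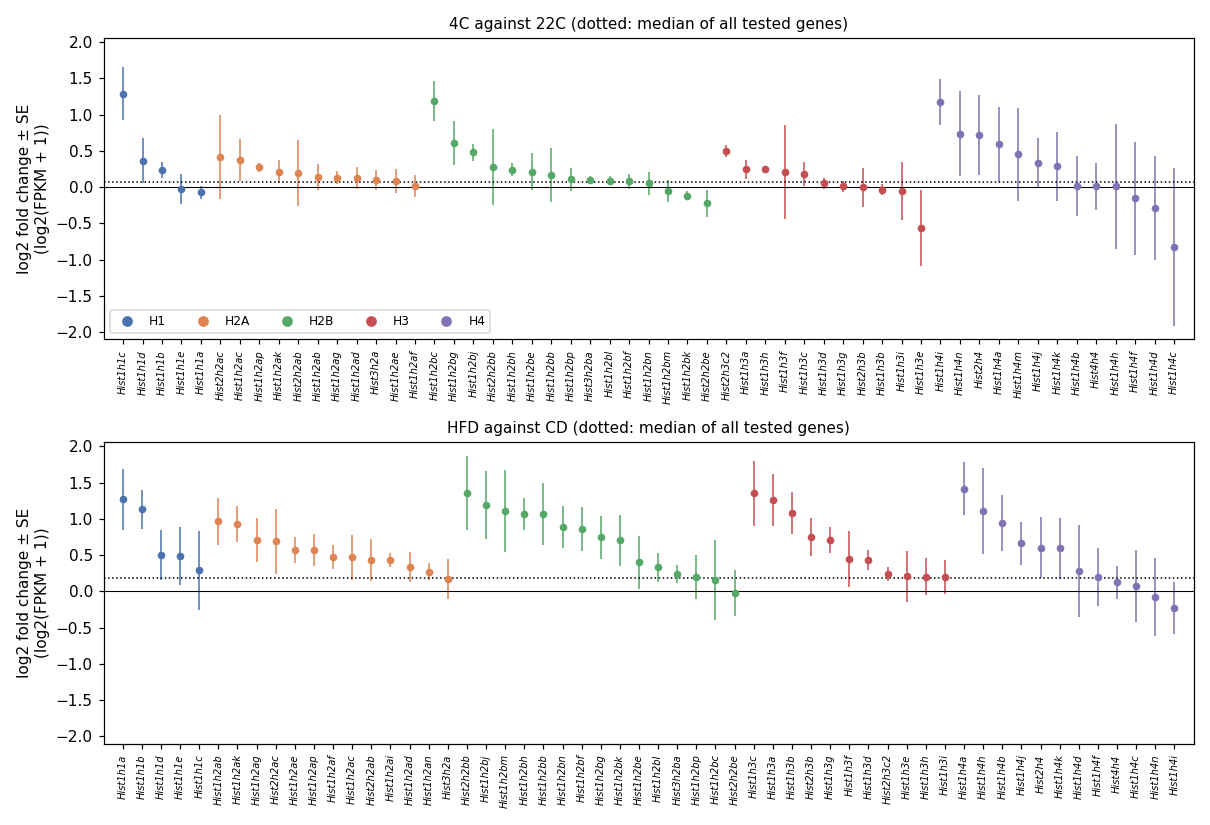
Log2 fold change of each tested member with its standard error, on the log2(FPKM + 1) scale, for 4C against 22C (55 genes) and HFD against CD (56 genes), coloured by class, with the median of all tested genes dotted. In the cold comparison the values scatter around the dotted line, and in the diet comparison 53 of 56 lie above 0 and most lie above the dotted line at 0.18.

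The smallest log2 fold changes between the diets were those of Hist1h4i (-0.23 ± 0.35 SE), Hist1h4n (-0.08 ± 0.53), Hist2h2be (-0.02 ± 0.32), Hist1h4c (0.08 ± 0.50) and Hist4h4 (0.13 ± 0.23), with limma's adjusted p from 0.81 to 0.99. Hist1h4i had 3.67 and 1.66 FPKM in CD and 1.55 and 2.55 FPKM in HFD. Hist1h1c, Hist1h2bc and Hist1h4d had 0.29 ± 0.55, 0.15 ± 0.56 and 0.28 ± 0.63 (log2, SE), with groups that overlapped and directions that flipped under median centring. Hist1h4h, by contrast, had 70.3 and 40.5 FPKM in CD and 76.6 and 177 FPKM in HFD, with no overlap. Its log2 fold change was 1.11 ± 0.59 (SE, limma, adjusted p = 0.45). HFD replicate 2 lay close to CD replicate 6, and the value is smaller without HFD replicate 6.

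Across the 56 tested members the median log2 fold change was 0.54, beside 0.18 over all tested genes. It was 0.26 (beside 0.12) without replicate 8 of CD, 0.81 (beside 0.28) without replicate 6 of CD and 0.93 (beside 0.35) with a pseudocount of 0.1. A 2-fold rise without a test was found for 12 (21.4%, against 3.46%) and a 2-fold fall for 0 (against 0.935%). Values above 0 were found for 53 (94.6%, against 79.3% of all tested genes). No member had both HFD libraries below both CD libraries (against 5.8%). Since the median of all tested genes was itself above 0, the counts were repeated after centring each library on its median. The median of the members was then 0.18 beside -0.18 over all tested genes, and 22 members (39.3%, against 11.3%) had both HFD libraries above both CD libraries and 5 (8.93%, against 28.4%) had both below. By class the uncentred medians were 0.50 for 5 H1 genes, 0.47 for 13 H2A, 0.75 for 15 H2B, 0.45 for 11 H3 and 0.44 for 12 H4.

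With library type as a covariate, which leaves 1 residual degree of freedom, 10 of 56 members (17.9%) passed the threshold as higher in HFD, against 3.35% of all tested genes. No member passed as lower (against 0.895%). The 10 were Hist1h1a, Hist1h1b, Hist1h2bb, Hist1h2bh, Hist2h2bb, Hist1h3a, Hist1h3b, Hist1h3c, Hist1h4a and Hist1h4h, of which Hist1h1b, Hist1h2bh and Hist1h3b are named after their values were seen. Hist1h4a had the lowest adjusted p (0.0091, limma) and Hist1h2bb the highest of the 10 (0.045). In the fit of all 8 libraries with group and library type 6 members passed as higher (10.7%, against 2.24% of all tested genes). In the fit without a covariate, leaving out CD replicate 8 left 0 members past threshold as higher (against 0.687%) and leaving out CD replicate 6 gave 17 (30.4%, against 3.14%). Leaving out HFD replicate 2 gave 2 (3.64%, against 1.33%) and leaving out HFD replicate 6 gave 3 (5.45%, against 0.411%).

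Within library types the difference was found in both pairs but was not of one size. In the satellite-high pair (HFD replicate 2 less CD replicate 8) the median of the members was 0.65 log2 units, beside 0.18 for all tested genes. In the satellite-low pair (HFD replicate 6 less CD replicate 6) it was 0.42, beside 0.18. The descriptions of CD replicate 6 and of the 22C and 4C libraries open with another prefix than those of CD replicate 8 and both HFD libraries, so the satellite-low pair differs in prefix as well as in diet. Within the prefix that CD and HFD share, CD is replicate 8 alone, so the values of that fit are those given above without CD replicate 6. For 46 of 56 members (82.1%, against 64.2%) the value was above 0 in both pairs. For 1, Hist1h4i, it was below 0 in both (1.79%, against 11.8% of all tested genes). Hist1h4a alone was at least 2-fold higher in both pairs, with log2 differences of 1.74 and 1.09 (1 of 56 is 1.79%, against 1.97% of all tested genes). Each pair is 1 library against 1, so these values have no error.

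**Figure D4:**
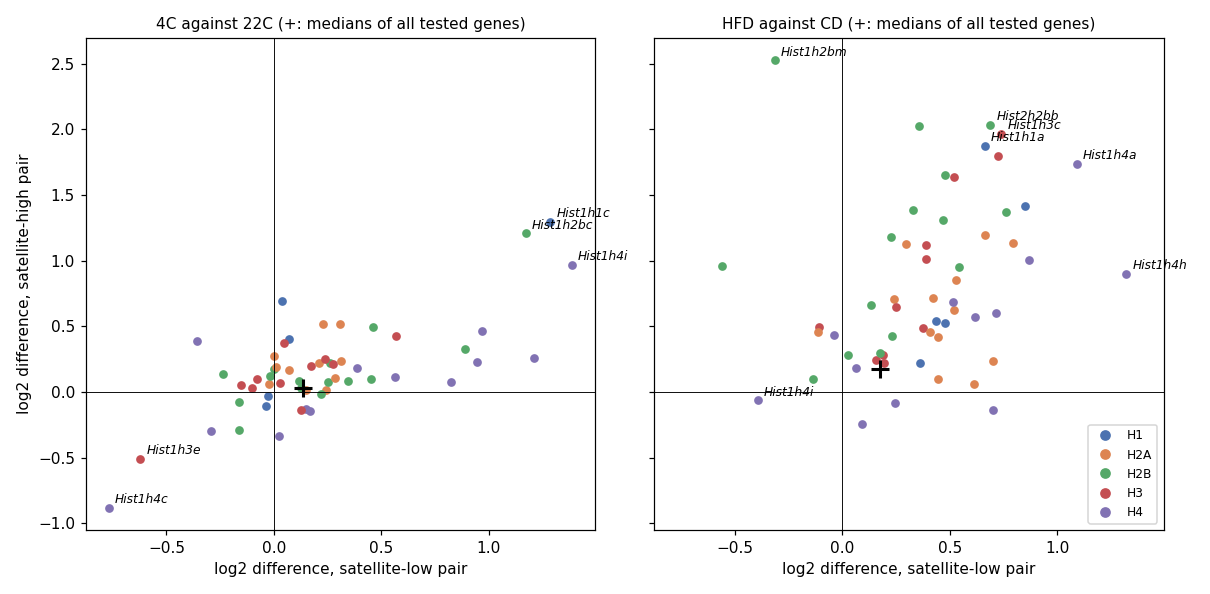
Log2 difference of each tested member in the satellite-low pair (x axis) and the satellite-high pair (y axis) for 4C less 22C and HFD less CD, coloured by class, with a cross at the medians of all tested genes. Hist1h1c and Hist1h2bc stand at the upper right in the cold comparison, and in the diet comparison most members lie above 0 on both axes, with the larger value mostly on the y axis.

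Genes that work with the histones were read in the same fit. Of 20 tested genes of S phase and mitosis, 0 passed the threshold and 20 had values above 0 (against 79.3% of all tested genes). Both HFD libraries lay above both CD libraries for 17 of the 20 (against 39.9%). Their median was 0.49, beside 0.18 over all tested genes. With library type as a covariate Mcm5, Mcm6 and Cdk1 passed, 3 of 20 against 3.35% of all tested genes. Mcm6, part of the replicative helicase, had 1.92 and 0.755 FPKM in CD and 3.36 and 4.17 FPKM in HFD. Summed over the 21 genes of the list, the level was 36.9 and 17.0 FPKM in CD and 47.1 and 59.0 FPKM in HFD. In 22C and 4C it was 23.2 to 31.2 FPKM. For 9 histone chaperones, which carry new histones to DNA, all 9 values were above 0, against the same 79.3%, with a median of 0.40, and 0 passed. For 11 replication-independent variant genes, such as H3f3a and H2afz, 11 were above 0, against 79.3% again, with a median of 0.35, and 0 passed. That list holds H2afx, whose annotated transcripts carry the stem-loop letters. H2afx alone of the 11 had an unadjusted p under 0.05, against 12.1% of all tested genes as higher. Its log2 fold change was 0.70 ± 0.23 (SE, limma, adjusted p = 0.25). For 13 genes of histone mRNA processing the median was 0.35 and 0 passed.

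Markers of other cells were read in the same libraries. For all 8 macrophage markers HFD lay above CD with no overlap, against 39.9% of all tested genes. Their median log2 fold change was 1.75, and 0 of the 8 passed the threshold without a covariate (against 0.0513% as higher). In the fit with library type all 8 passed, against 3.35% of all tested genes. Their summed level was 136 and 51.2 FPKM in CD and 282 and 319 FPKM in HFD. The 7 neutrophil markers summed to 4.43 and 2.98 FPKM in CD and 6.03 and 14.2 FPKM in HFD, while the defining marker Ly6g was at 0.0605 FPKM in CD replicate 8, at 0.0127 FPKM in HFD replicate 2 and listed at 0 in the other 6 libraries. Of 9 tested lymphoid markers 5 had values above 0 (against 79.3% of all tested genes). The list summed to 5.25 and 2.76 FPKM in CD and 7.54 and 11.2 FPKM in HFD. Most of that sum was Ptprc, at 3.87 and 1.67 FPKM in CD and 5.81 and 9.93 FPKM in HFD. No other gene of the lymphoid list was above 0.601 FPKM in CD or HFD. The 6 autosomal erythroid markers found summed to 802 and 431 FPKM in CD and 556 and 1263 FPKM in HFD. In the fit with library type 1 of 9 tested lymphoid (Ptprc), 1 of 5 erythroid (Hba-a1) and 1 of 2 neutrophil markers (S100a8) passed as higher. The 11 muscle markers summed to 487 and 1324 FPKM in CD and 159 and 13.2 FPKM in HFD. Without a covariate 0 passed, against 0.0171% of all tested genes as lower. With library type as a covariate 10 passed as lower, against 0.895%. The part of these cells in the histone values was not tested.

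**Figure D5:**
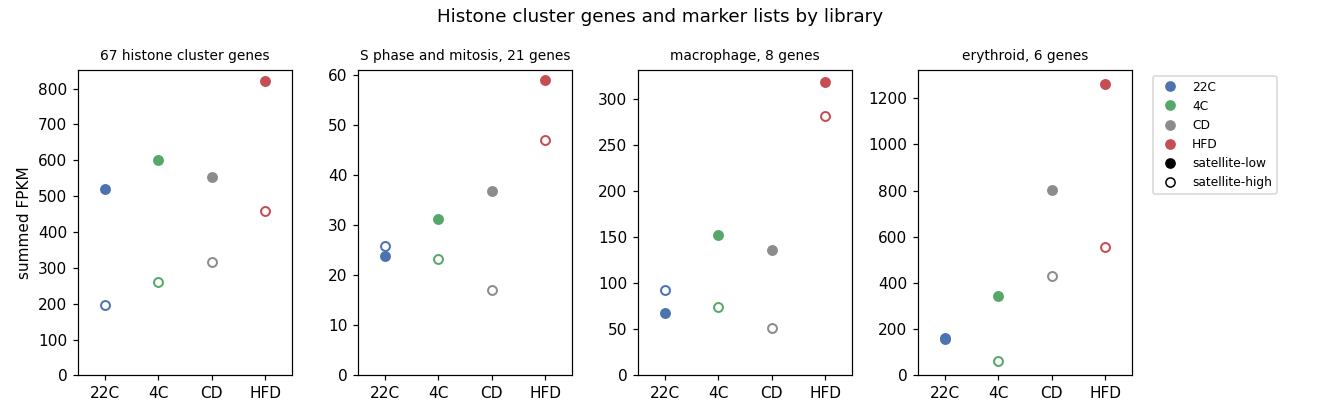
Summed FPKM by library (linear axes from 0) for the 67 histone cluster genes, 21 genes of S phase and mitosis, 8 macrophage markers and 6 autosomal erythroid markers, with open points for satellite-high libraries. The S phase and macrophage sums are highest in both HFD libraries, whereas the histone sum of HFD replicate 2 (457 FPKM) lies below that of CD replicate 6 (554 FPKM).

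Between library types no histone cluster gene passed the threshold, and most had lower values in the satellite-high libraries. The rule for this split used Gm10800 alone, which is not a member. In a fit of all 8 libraries with group as a covariate, 0 of 57 tested members passed the threshold between satellite-high and satellite-low libraries, where 0.0159% of 18894 genes passed as higher and 0.0318% as lower. At an unadjusted p under 0.05, 36 members (63.2%, against 21.2% of all tested genes) were lower in satellite-high libraries and 0 were higher (against 4.81%). In all 4 groups the satellite-high library was lower for 36 members (63.2%, against 26.2%). The median of the members was -0.38, beside -0.08 over all tested genes.

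By class the medians were -0.38 for H1, -0.34 for H2A, -0.23 for H2B, -0.36 for H3 and -0.97 for H4. Values above 0 were found for 3 of 57 tested members and for 6194 of 18894 tested genes. All 13 tested H4 genes had values below 0, as had all 5 of H1 and all 11 of H3. The most negative were Hist1h4c at -1.50, Hist1h4h at -1.46 and Hist1h4d at -1.33 (log2, limma's adjusted p from 0.13 to 0.14). The H4 sum was 95.9, 79.6, 185 and 224 FPKM in the satellite-high libraries of 22C, 4C, CD and HFD, and 360, 320, 293 and 490 FPKM in the satellite-low ones. The olfactory receptor genes averaged 0.0258 to 0.0518 FPKM in the satellite-high libraries and 0.0125 to 0.0220 FPKM in the satellite-low ones, and the part of genomic DNA in the members' values was not tested.

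The length of transcript past the stem-loop was set beside these values as a description, a split made after the values were seen. In HFD against CD the median log2 fold change was 0.42 for 20 tested members with a transcript of 100 bases or more past the stem-loop, 0.90 for 18 with a shorter tail and 0.53 for 18 with no match. In 4C against 22C the medians were 0.21 for 20, 0.13 for 19 and 0.14 for 16. The longer group holds Hist1h1c and Hist1h4i. On the log2(FPKM + 1) scale these had the largest log2 fold changes in cold together with Hist1h2bc. The longer group also holds Hist1h4c, Hist1h3e and Hist1h4d, which had the most negative values in cold. Its 20 values in cold ran from -0.82 to 1.29. In the annotated transcripts of Hist1h2bc the stem-loop letters were not found.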

How the data were processed

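RNA-Seq of 8 BAT libraries was analysed, grouped by the labels. Per the study's methods, ribosomal RNA was removed, and the authors sequenced directional libraries with 100 bases from both ends and mapped them to GRCm38 with TopHat2 2.0.10. The deposited unit is FPKM, which the authors made with Cufflinks (2.2.1 in the submitters' processing notes, an earlier version in the methods) without pooling replicates. Genes at 0.1 FPKM or more in 2 libraries of a comparison, on chromosomes 1 to 19, were tested with limma 3.58.1 under R 4.3.3 (trend, two-sided), on values of log2(FPKM + 1), and adjusted over all tested genes. X-linked genes were left out because they are listed at 0 in 3 libraries. The labels do not say that replicates are separate animals, so p-values measure the spread between these samples, which may be technical. Named members were the 3 highest of each class, the 5 largest rises and falls, any past threshold, members of Hist2 to Hist4 at a mean of 1 FPKM or more, and the testis members. Members and lists were chosen with earlier results of these data known. Scripts were tested on simulated data. Alternatives are given at the end.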

Additional observations from a re-analysis of the deposited data

Results flagged for a closer look

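A row outside the members carried a signal above its control group: Hist3h2bb-ps, an H2B pseudogene at the Hist3 locus (chr11:58954048-58954512, minus strand), which the rule left out. It had 0.440 and 0.105 FPKM in CD and 0.777 and 0.744 FPKM in HFD, so both HFD libraries lay above both CD libraries, as they did for 39.9% of all genes tested. In 22C it had 0.132 and 0.268 FPKM and in 4C 0.323 and 0.0309 FPKM. No test was run on it.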

How the results depend on the processing

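No analysis paired by the labels was possible because 22C and 4C share no replicate number and CD and HFD share 1. The fit with library type as a covariate sets libraries of 1 type against each other, but that split was read from the data and not from the labels. In 4C against 22C the number of members past threshold, all as higher, was 3 with library type as a covariate (5.45%, against 4.32% of all tested genes), 3 in the fit of all 8 libraries (5.45%, against 4.44%) and 0 to 3 with 1 library left out (3 without replicate 7 of 22C, 5.88% against 3.82%), and 0 under the other alternatives. In HFD against CD it was 10 (17.9%, against 3.35%), 6 (10.7%, against 2.24%) and 0 to 17 in the same order (17 without replicate 6 of CD, 30.4% against 3.14%), and 0 under the others. Between library types it was 2 as lower after median centring (3.51%, against 0.556%) and 0 under the others. The median of the members in HFD against CD was 0.93 (all tested genes 0.35) with a pseudocount of 0.1, 0.18 after median centring and 0.26 to 0.81 with 1 library left out. The cause of these changes was not tested. In 4C against 22C, the sign changed under a pseudocount of 0.1 for Hist4h4 (-0.080) (log2 fold changes). In 4C against 22C, the sign changed under median centring for Hist1h1b (-0.021), Hist1h2bb (-0.094), Hist1h2bh (-0.016), Hist1h3a (-0.015), Hist1h3c (-0.073), Hist1h3f (-0.046), Hist1h4h (-0.25), Hist2h2ab (-0.060), Hist3h2a (-0.16) and Hist4h4 (-0.25) (log2 fold changes). In 4C against 22C, the sign changed under quantile normalization for Hist1h4h (-0.53) and Hist4h4 (-0.063) (log2 fold changes). In 4C against 22C, the sign changed under subtraction of the olfactory receptor average for Hist2h3b (0.0047) (log2 fold changes). With 1 library of 4C against 22C left out, a sign change was found for Hist1h1d (-0.057 to 0.78), Hist1h2bb (-0.27 to 0.60), Hist1h3f (-0.59 to 1.02), Hist1h4h (-1.03 to 1.05), Hist2h2ab (-0.35 to 0.75), Hist2h2ac (-0.28 to 1.10), Hist2h2bb (-0.39 to 0.94), Hist4h4 (-0.41 to 0.44), Hist1h1e (-0.14 to 0.083), Hist1h3b (-0.12 to 0.052), Hist1h3e (-1.16 to 0.029), Hist1h4c (-2.09 to 0.44), Hist1h4d (-1.09 to 0.50), Hist1h4f (-1.12 to 0.81), Hist2h3b (-0.33 to 0.33), Hist1h4a (-0.14 to 1.32), Hist1h4n (-0.11 to 1.59) and Hist2h4 (-0.0083 to 1.44). In HFD against CD, the sign changed under median centring for Hist1h1c (-0.066), Hist1h2bc (-0.20), Hist1h3e (-0.15), Hist1h4c (-0.28), Hist1h4d (-0.073), Hist1h4f (-0.16), Hist3h2a (-0.18) and Hist4h4 (-0.23) (log2 fold changes). In HFD against CD, the sign changed under quantile normalization for Hist1h3e (-0.14), Hist1h4c (-0.072), Hist1h4f (-0.086), Hist3h2a (-0.13) and Hist4h4 (-0.14) (log2 fold changes). With 1 library of HFD against CD left out, a sign change was found for Hist1h4i (-0.63 to 0.18), Hist1h4n (-0.75 to 0.59), Hist2h2be (-0.33 to 0.29), Hist1h1c (-0.19 to 0.77), Hist1h2bc (-0.36 to 0.67), Hist1h3e (-0.066 to 0.48), Hist1h4c (-0.27 to 0.43), Hist1h4d (-0.47 to 1.03), Hist1h4f (-0.21 to 0.60), Hist4h4 (-0.078 to 0.33) and Hist3h2a (-0.082 to 0.43). The lone library left in a group is then assumed to vary like the other group. With a filter of 1 FPKM, 6 of the named results had no value. Members near 0.1 FPKM rest on few fragments, and the precision of every value is limited by 2 libraries per group.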
